A study of Gallus gallus with 6 samples.

Results

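Hindlimb bud mesenchyme at Hamburger-Hamilton stage 18 (HH18) was set against flank mesenchyme at HH19 in chick (Gallus gallus) embryos. Both tissues come from the posterior trunk, where the hindlimb bud grows out of the body wall and the flank does not form a limb. The comparison used 2 of the 6 polyA RNA-seq libraries of the series, 1 library for each tissue, and 11754 of the 17781 genes in the deposited table, those at 1 CPM or more in either library (CPM is the number of reads of a gene per 1000000 reads counted to genes). The higher of the 2 levels was between 1 and 1.1 CPM for 128 of these genes, and it was between 0.9 and 1 CPM for 152 genes just outside. The hindlimb library came from mesenchyme labelled hindlimb, HH18, and the flank library from mesenchyme labelled flank, with HH19 in its source label and the number 9 in its title. The other libraries were forelimb HH19, presumptive forelimb HH15, neck HH19 and one labelled flank and neck, HH19, and they are quoted beside the results as levels. All tissues were dissected straight from embryos, with no treatment, transgene or deletion named, and the labels used here give no strain, sex or number of embryos pooled. Because the hindlimb library is also 1 stage younger, tissue and stage cannot be told apart. With 1 library a side no difference has a replicate check, and genes are described by the size of their difference.

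A limb bud forms where lateral plate mesoderm under the body wall ectoderm keeps dividing while the neighbouring flank slows. FGF10 from the mesoderm acts on the ectoderm, the ectodermal ridge returns FGF signals, and Sonic hedgehog from the posterior margin and BMP, Wnt and retinoic acid signals shape the bud. TBX4, PITX1 and ISL1 are transcription factors known for hindlimb identity and initiation and TBX5 for the forelimb, and HOX genes mark position along the trunk and, in their posterior groups, along the limb.

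The hindlimb library held 9623046 reads counted to genes and the flank library 8273762, so 3 reads, the floor used below, stood for 0.312 CPM in hindlimb and 0.363 CPM in flank. Intervals are 95% intervals and, like the floor, cover counting error only. Globin genes took 0.446% of the reads in hindlimb and 4.03% in flank, against 0.0775% to 0.294% in the libraries of forelimb, presumptive forelimb and neck. Genes of the mitochondrial chromosome took 26.8% of the reads in hindlimb and 27.1% in flank. Of 25 measured entries on the W chromosome, which only female birds carry, 0 were 2-fold apart, against 12.4% of all tested genes. Their summed level was 917 CPM in hindlimb and 830.1 CPM in flank. The library labelled flank and neck went against its label: HOXD12, a posterior HOX gene of limb buds, stood at 237 CPM there, against 0.483 CPM in flank and 0.369 CPM in neck, and its globin share was 0.00447%. It was therefore used only as an alternative to the flank library. The counts could be shared between overlapping entries of the table. The entry on the strand opposite to the pi-globin gene, ENSGALG00000007458, lies inside that gene and stood at 1343 CPM in hindlimb and 12582 CPM in flank, close to pi-globin (HBZ) itself at 1511 CPM in hindlimb and 14052 CPM in flank. Entries with reads also overlap SHH, GATA5, FN1 and FGF1 on the opposite strand, and the levels of these genes are uncertain to that extent.

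The labelled tissues were checked against their markers. TBX4, PITX1, ISL1, PRRX1 and FGF10 were all present in hindlimb, between 13.6 CPM for ISL1 and 306 CPM for PRRX1. In flank, the mesenchymal transcription factor PRRX1 stood at 430.4 CPM and the collagen gene COL1A2 at 932 CPM. GATA6, a factor of lateral plate mesoderm, stood at 13.3 CPM in flank. GATA6 was not particular to flank, at 20.8 CPM in neck and 18.5 CPM in presumptive forelimb HH15. The planned flank markers HOXC6 and HOXC8 were not found under those names, so no marker particular to flank was checked. TBX4 was not absent there, at 4.47 CPM from 37 reads, and PITX1 stood at 46.8 CPM. The flank library also carried 102 CPM of TBX5. PDGFRA, a receptor of mesenchyme, stood at 55.4 CPM in hindlimb and 87.5 CPM in flank.

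In hindlimb, 411 genes were at least 2-fold higher on the log2(CPM + 1) scale than in flank, 3.50% of the 11754 tested, and 1044 were at least 2-fold lower, 8.88%. Differences are given below as hindlimb minus flank on that scale, which understates the change of low genes. At least 4-fold apart were 104 genes higher and 230 lower in hindlimb, and at least 8-fold apart were 48 higher and 75 lower. The median difference over all tested genes was -0.06, and the middle 90% of genes lay between -1.36 and 0.82. The lower side was wider among weakly expressed genes: where the higher level was between 1 and 5 CPM, 13.2% of 2531 genes were 2-fold lower and 4.50% were 2-fold higher, and at 100 CPM or more these shares were 5.86% and 3.59% of 1588 genes. Of the higher genes, 137 reached 1 CPM in hindlimb alone, and of the lower genes, 336 reached it in flank alone. Such genes could enter the comparison only through the library in which they were higher. Counts in the gene lists below are to be read beside the 3.50% and 8.88% of all genes. The lists were chosen with earlier results of these data known.

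**Figure D1:**
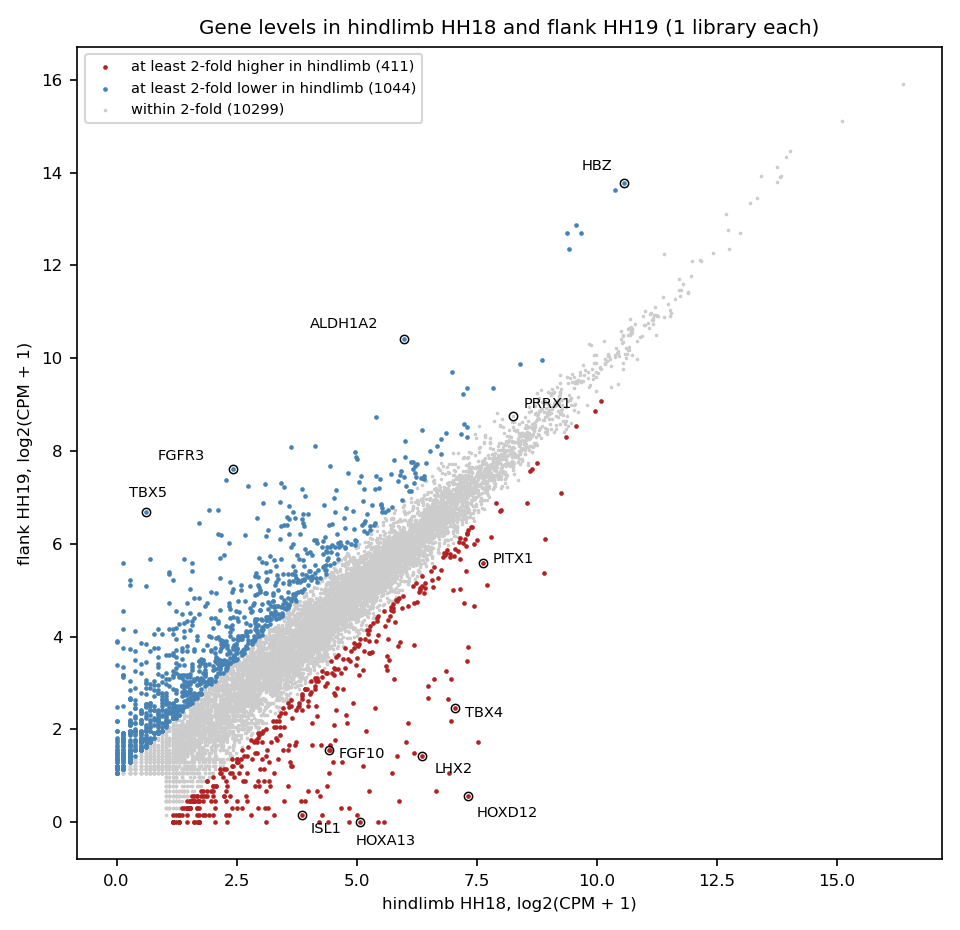
Level of each of the 11754 tested genes in hindlimb HH18 (horizontal axis) and flank HH19 (vertical axis), both as log2(CPM + 1), with 1 library each and a point for each gene. Red points are the 411 genes at least 2-fold higher in hindlimb and blue points the 1044 at least 2-fold lower. TBX5, FGFR3 and ALDH1A2 lie far above the diagonal and HOXD12, TBX4 and HOXA13 far below it, while PRRX1 lies among the grey genes within 2-fold.

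Of the 5 measured genes on the limb type list, 3 were 2-fold higher in hindlimb and 2 lower. TBX4 stood at 131 CPM in hindlimb and 4.47 CPM in flank, which was 29.3-fold (95% interval 21.1 to 41.7) higher. PITX1 stood at 196 CPM in hindlimb and 46.8 CPM in flank, a difference of 2.05. ISL1 had 131 reads in hindlimb and 1 in flank, a ratio of 113-fold (95% interval 19.9 to 4482). All 3 are hindlimb factors, and in forelimb HH19 they stood at 0.251, 0.377 and 0 CPM. The PITX1 entry lies wholly opposite another entry of the table, PHS2_CHICK, which stood at 57.3 CPM in hindlimb and 27.1 CPM in flank, so reads of that pair cannot be told apart. TBX5, the forelimb factor, had 5 reads in hindlimb and 844 in flank, which is 196-fold (95% interval 83.8 to 606) lower in hindlimb. It was the named gene with the largest difference below 0, at -6.08, and it stood at 165 CPM in neck, 182 CPM in forelimb HH19 and 336 CPM in presumptive forelimb HH15.

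HOX genes separated by paralogue group, the number that gives a gene's place along its cluster. In groups 11 to 13, all 7 measured genes were 2-fold higher in hindlimb, and in groups 1 to 8 none of 13 was higher and 7 were lower. In groups 9 and 10, 2 of 6 were higher and 1 was lower. Over all tested genes, 3.50% were higher and 8.88% lower. All but 1 of the 7 genes in groups 11 to 13 were below 1 CPM in flank, so they entered through hindlimb alone. The summed level of groups 11 to 13 was 422 CPM in hindlimb and 1.81 CPM in flank, and that of groups 1 to 8 was 346 CPM in hindlimb and 744 CPM in flank.

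In the HOXA cluster, HOXA13, the most distal limb marker of the cluster, had 314 reads in hindlimb and 0 in flank, at least 72.8-fold higher. HOXA11, a gene of the middle limb segment, stood at 121 CPM in hindlimb and 1.09 CPM in flank, a difference of 5.87. HOXA10 stood at 49.6 CPM in hindlimb and 14.50 CPM in flank. These 3 were higher in hindlimb, while HOXA9, HOXA7 and HOXA6 differed by 0.21, -0.33 and -0.21, all within 2-fold. HOXA3 and HOXA4 were lower in hindlimb by 2-fold or more, with differences of -1.12 and -1.23.

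In the HOXD cluster, HOXD12 had the largest difference of any named gene above 0, 6.75, with 1532 reads in hindlimb and 4 in flank. HOXD13 stood at 17.6 CPM in hindlimb and had 0 reads in flank, at least 39.0-fold higher by the 95% interval. HOXD11 stood at 27.5 CPM in hindlimb and had 2 reads in flank, a ratio of 114-fold (95% interval 31.2 to 946). The 3 posterior genes were thus far apart, whereas HOXD10 stood at 207 CPM in hindlimb and 149.8 CPM in flank, a difference of 0.47, and HOXD9 was lower in hindlimb, at 25.9 CPM against 80.1 CPM in flank. HOXD3 and HOXD4 differed by -0.09 and -0.01. An entry on the opposite strand, ENSGALG00000011075, overlaps the ends of HOXD12 and HOXD13 and stood at 27.5 CPM in hindlimb and 0 CPM in flank.

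The 3 measured HOXC genes were all higher in hindlimb. Of 9 HOXC genes listed, only 4 were found, HOXC10 to HOXC13, so no anterior HOXC gene was compared. HOXC10 stood at 66.1 CPM in hindlimb and 3.38 CPM in flank, 19.5-fold (95% interval 13.4 to 29.6) higher. HOXC11 and HOXC12 had 411 and 194 reads in hindlimb and 0 in flank. By the 95% interval they were at least 95.4-fold and at least 44.8-fold higher. The list median was 4.40, or 3.96 with genes at 0 reads set to the floor. All 3 were below 1 CPM in each of the other 4 libraries, the forelimb libraries included, whereas HOXA11, HOXD11 and HOXD12 stood at 25.5, 8.17 and 55.7 CPM in forelimb HH19. The HOXC10 entry spans a long stretch of unplaced sequence that holds other entries, among them HOXB7.

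The HOXB cluster went the other way, with 4 of 7 measured genes 2-fold lower in hindlimb, none higher, and a median of -1.21. The measured HOXB genes ran from HOXB1 to HOXB9 and the measured HOXC genes from HOXC10 to HOXC12. Cluster and paralogue group therefore cannot be told apart in this contrast. HOXB8 stood at 33.0 CPM in hindlimb and 175 CPM in flank, a difference of -2.37. HOXB5, HOXB3 and HOXB1 differed by -1.56, -1.44 and -1.21. HOXB7 lay just within 2-fold, at 12.0 CPM in hindlimb and 24.9 CPM in flank, HOXB9 differed by -0.92, and HOXB4 was level at 0.03. HOXB13, HOXC13 and HOXD1 were below 1 CPM in both libraries and so were not measured. The HOXB8 entry spans HOXB5, HOXB3 and HOXB1 on the same strand, so how their reads were divided is unknown.

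**Figure D2:**
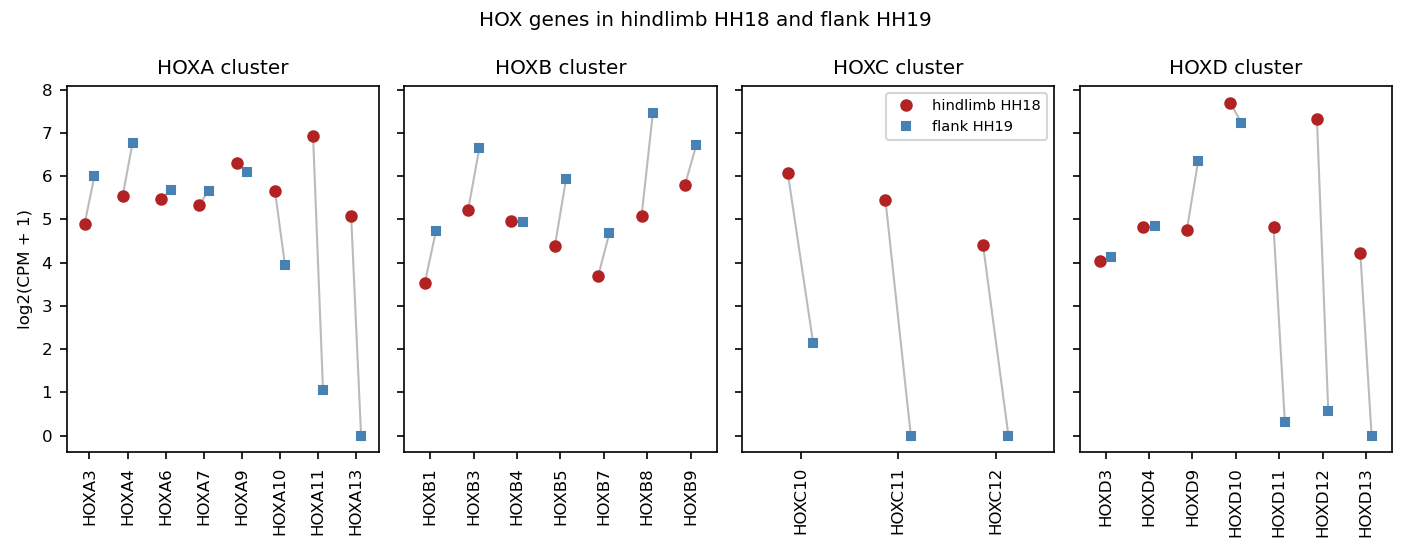
Level of the HOX genes at 1 CPM or more in either library that are described here, as log2(CPM + 1), in hindlimb HH18 (red circles) and flank HH19 (blue squares), in a panel for each of the 4 clusters with genes in paralogue order. The red circles stand far above the blue squares from group 11 on in HOXA and HOXD and at HOXC10, HOXC11 and HOXC12, and the squares stand higher at most HOXB genes.

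Limb field and limb mesenchyme lists held mainly transcription factors of the bud. Of 14 measured limb field genes, 9 were 2-fold higher in hindlimb and 1, TBX5, was lower, with a list median of 2.42. Of 26 measured limb mesenchyme genes, 14 were higher and 6 lower, with a median of 1.17, against 3.50% and 8.88% of all genes. Both lists were chosen with earlier results of these data known, so their shares are description only. PRRX1, PRRX2 and SALL1 are on both lists, and the limb field list also holds TBX4, TBX5, ISL1 and PITX1, already counted above. The LIM homeobox genes LHX2, LHX9 and LMX1B stood at 81.8, 57.9 and 89.0 CPM in hindlimb and 1.69, 0.363 and 5.44 CPM in flank. LHX9 and LHX2 are known as responders to ridge FGF in bud mesenchyme and LMX1B as the dorsal factor. TBX18 had 451 reads in hindlimb and 0 in flank, at least 104.7-fold higher. The related TBX15, with 1 read in flank, stood at 18.4 CPM in hindlimb.

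TFAP2A, an AP-2 factor also of ectoderm and neural crest, had 962 reads in hindlimb and 5 in flank, a difference of 5.98, and its relative TFAP2C had 237 reads in hindlimb and 2 in flank. PRDM16, MECOM and ZBTB16, zinc-finger regulators, stood at 123, 88.2 and 124 CPM in hindlimb and 3.51, 6.65 and 7.49 CPM in flank. SALL1 and SALL3, zinc-finger genes of limb outgrowth, differed by 2.79 and 1.90. MSX1, a homeobox gene of the undifferentiated distal mesenchyme, stood at 64.1 CPM in hindlimb and 2.30 CPM in flank. Its relative MSX2 went the other way, at 39.1 CPM in hindlimb and 113 CPM in flank, a difference of -1.51. TBX3 and TBX2, T-box genes of the bud margins and body wall, were likewise lower in hindlimb, at 81.3 and 16.4 CPM against 349 and 66.2 CPM in flank. TWIST2 differed by -1.76. PRRX1 and HAND2, general factors of lateral plate mesenchyme, were within 2-fold, with differences of -0.49 and -0.51. An entry on the strand opposite to PRRX1 stood at 546 CPM in hindlimb and 612 CPM in flank.

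Of 19 measured FGF pathway genes, 8 were 2-fold higher in hindlimb, 42.1% against 3.50% of all genes, and 4 lower, 21.1% against 8.88%. Among the ligands, FGF10, the mesodermal inducer of the bud, stood at 20.4 CPM in hindlimb and 1.93 CPM in flank, 10.5-fold (95% interval 6.32 to 18.8) higher. FGF18 had 37 reads in hindlimb and 1 in flank, and FGF20 and FGF1 had 22 each in hindlimb and 0 in flank. FGF12, an intracellular member of the family, differed by -1.20. FGF7 was also lower, with 3 reads in hindlimb and 85 in flank, 33.0-fold (95% interval 10.9 to 163) lower. FGF8, the ligand of the ridge, was below 1 CPM in both libraries, with 0 reads in hindlimb and 3 in flank. Of the receptors, FGFR1 was level at -0.11, FGFR2 stood at 12.6 CPM in hindlimb and 53.3 CPM in flank, and FGFR3 stood at 4.36 CPM in hindlimb and 196 CPM in flank, 44.9-fold (95% interval 33.1 to 62.5) lower in hindlimb. The feedback inhibitors DUSP6, SPRY2 and IL17RD, genes that FGF signalling itself induces, were all higher, at 96.6, 22.3 and 157 CPM in hindlimb and 7.49, 2.42 and 10.2 CPM in flank. SPRY4 differed by 1.29, and the related inhibitors SPRED1 and SPRED2 were within 2-fold at 0.68 and 0.36.

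Among hedgehog pathway genes, SHH, the ligand of the posterior bud margin, had 30 reads in hindlimb and 2 in flank, a ratio of 12.9-fold (95% interval 3.27 to 111). PTCH1, its receptor and target, stood at 14.2 CPM in hindlimb and 7.01 CPM in flank, just within 2-fold at 0.93. GLI1, the other direct target, differed by -0.27 and SMO, the signal transducer, by -0.32. DISP1, which releases the ligand from cells, was lower in hindlimb at 22.9 CPM against 143 CPM in flank, and the co-receptor GAS1 differed by -1.77. In all, 2 of 11 measured genes were higher and 2 lower, 18.2% each, against 3.50% and 8.88% of all genes.

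In the BMP and TGF-beta list 4 of 25 measured genes were higher and 5 lower, to be read beside the 3.50% and 8.88% of all genes. CHRDL1, GREM1, SMOC1 and SMOC2 had the largest differences of the list. Other extracellular proteins of the list, BMPER, TWSG1 and FSTL1, were within 2-fold at -0.60, 0.29 and -0.23. CHRDL1, a chordin-like BMP antagonist, stood at 72.7 CPM in hindlimb and 1.81 CPM in flank, 40.1-fold (95% interval 24.2 to 72.1) higher. GREM1, the antagonist that links the posterior margin to the ridge, stood at 19.95 CPM in hindlimb and 0.725 CPM in flank. SMOC1 and SMOC2, related matrix proteins, went in opposite directions, with SMOC1 at 35.7 CPM in hindlimb and 2.90 CPM in flank and SMOC2 at 13.5 CPM in hindlimb and 91.3 CPM in flank. The ligands BMP4 and BMP7 were within 2-fold, at -0.53 and 0.75, and BMP2 stood at 5.30 CPM in hindlimb and 1.69 CPM in flank. ID2, a target of BMP signalling, differed by -1.74, while the related ID1 and ID4 were within 2-fold at 0.97 and -0.84. BAMBI, a decoy receptor, differed by -1.28.

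Of 14 measured retinoic acid genes, 6 were 2-fold lower in hindlimb, 1 was higher and 7 were within 2-fold, with a median of -0.86. Lower genes were 42.9%, against 8.88% of all genes, and the higher gene 7.14%, against 3.50%. ALDH1A2, the enzyme that makes retinoic acid in trunk mesoderm, stood at 62.1 CPM in hindlimb and 1369.6 CPM in flank, 22.04-fold (95% interval 20.3 to 24.0) lower. It stood at 824 CPM in neck, 531 CPM in presumptive forelimb HH15 and 25.8 CPM in forelimb HH19. The HH18 hindlimb and HH19 forelimb buds were thus low, and flank, neck and presumptive forelimb were high. RXRG, a retinoid receptor, DHRS3, which reduces retinal, and STRA6, the retinol transporter, differed by -2.55, -1.85 and -1.38. The degrading enzymes split, with CYP26A1 at 7.17 CPM in hindlimb and 2.30 CPM in flank and CYP26B1 at 3.43 CPM in hindlimb and 11.8 CPM in flank. RARB, a receptor that retinoic acid induces, and CRABP1, a cellular carrier, were within 2-fold at -0.73 and 0.15.

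**Figure D3:**
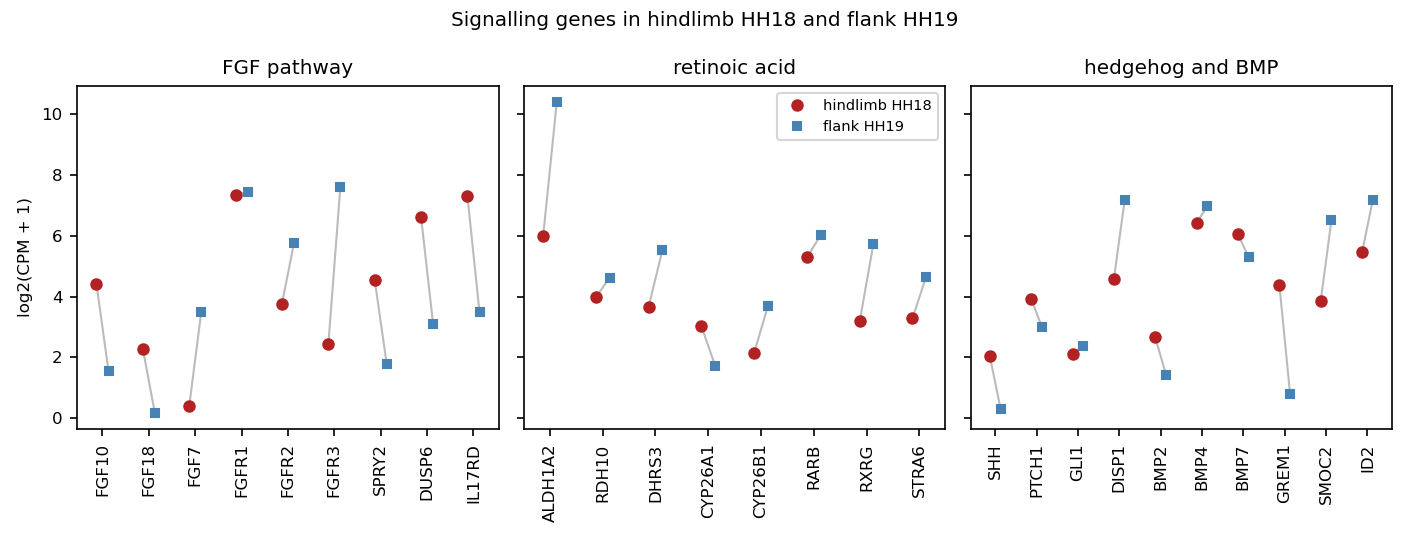
Levels of selected signalling genes, as log2(CPM + 1), in hindlimb HH18 (red circles) and flank HH19 (blue squares), 1 library each. FGF10 and the feedback genes SPRY2, DUSP6 and IL17RD stand higher in hindlimb, while FGFR3, ALDH1A2, DISP1 and SMOC2 stand higher in flank.

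Of 31 measured Wnt pathway genes, 7 were 2-fold higher in hindlimb, 22.6% against 3.50% of all genes, and 6 were lower, 19.4% against 8.88%. RSPO2, a secreted enhancer of Wnt signalling made in the bud, stood at 20.9 CPM in hindlimb and 1.93 CPM in flank, whereas its relative RSPO3 stood at 4.99 CPM in hindlimb and 33.5 CPM in flank. The receptors FZD10 and ROR2 were higher, with differences of 2.70 and 1.41, while the receptor FZD1 was lower at -1.08. Secreted inhibitors also went both ways. SFRP1 and DKK3 were lower at -2.14 and -1.21, and WIF1 and DKK1 were higher at 1.19 and 1.30. AXIN2, a common target of the pathway, was level at 0.04. APCDD1, a membrane inhibitor of Wnt that is not on the list and was named after its value was seen, stood at 477 CPM in hindlimb and 40.4 CPM in flank.

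Among Notch and ephrin genes, 5 of 20 were higher and 3 lower. The ligand JAG2 stood at 26.3 CPM in hindlimb and 3.99 CPM in flank, and the Notch targets HEY2 and HES5 stood at 9.25 and 2.29 CPM in hindlimb and 1.57 and 0.242 CPM in flank. HES5 rested on 22 reads in hindlimb and 2 in flank, and the related genes HES1 and HEY1 were within 2-fold at -0.02 and 0.89. The ephrin receptors split. EPHA3 and EPHA5 were lower in hindlimb, at -2.48 and -1.76, and EPHB1 and EPHB3 were higher, at 1.05 and 1.15. Of 25 guidance genes, 6 were higher and 5 lower. CXCL12, the chemokine that draws migrating muscle precursors and vessels into the bud, had 301 reads in hindlimb and 1 in flank, a difference of 4.85. Its receptor CXCR4 stood at 5.61 CPM in hindlimb and 0.363 CPM in flank. SLIT2, a repellent ligand, differed by 1.87 and the related SLIT3 by -1.83, and the receptors ROBO2 and ROBO1 by 1.71 and -1.22. PLXNA2, a semaphorin receptor, stood at 1.97 CPM in hindlimb and 41.6 CPM in flank. NTS, which encodes neurotensin, stood at 17.8 CPM in hindlimb and 0.483 CPM in flank and at 199 CPM in forelimb HH19.

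The 15 named genes furthest above 0 were HOXD12, TFAP2A, HOXA11, TBX18, HOXC11, LHX9, HOXA13, LHX2, CXCL12, PRDM16, CHRDL1, HPSE2, TBX4, GJA5 and HOXD11, with differences of 6.75 to 4.52. Most of them encode transcription factors. HPSE2, a heparanase relative, stood at 52.5 CPM in hindlimb and 1.09 CPM in flank, and GJA5, a gap junction gene of arterial endothelium, at 37.2 CPM in hindlimb and 0.604 CPM in flank. In forelimb HH19 their levels differed. TFAP2A, LHX9, LHX2, PRDM16 and HPSE2 stood at 60.9 to 124 CPM there, while HOXC11, HOXA13 and TBX4 stood at 0, 0.126 and 0.251 CPM. Secreted factors further down, named after their values were seen, included VEGFD, a growth factor for lymphatic and blood vessels, at 119.5 CPM in hindlimb and 5.32 CPM in flank, HGF, the factor that releases muscle precursors, at 149.5 CPM in hindlimb and 25.3 CPM in flank, SCUBE1 at 158 CPM in hindlimb and 12.7 CPM in flank and WFDC1 at 487 CPM in hindlimb and 67.6 CPM in flank.

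**Figure D4:**
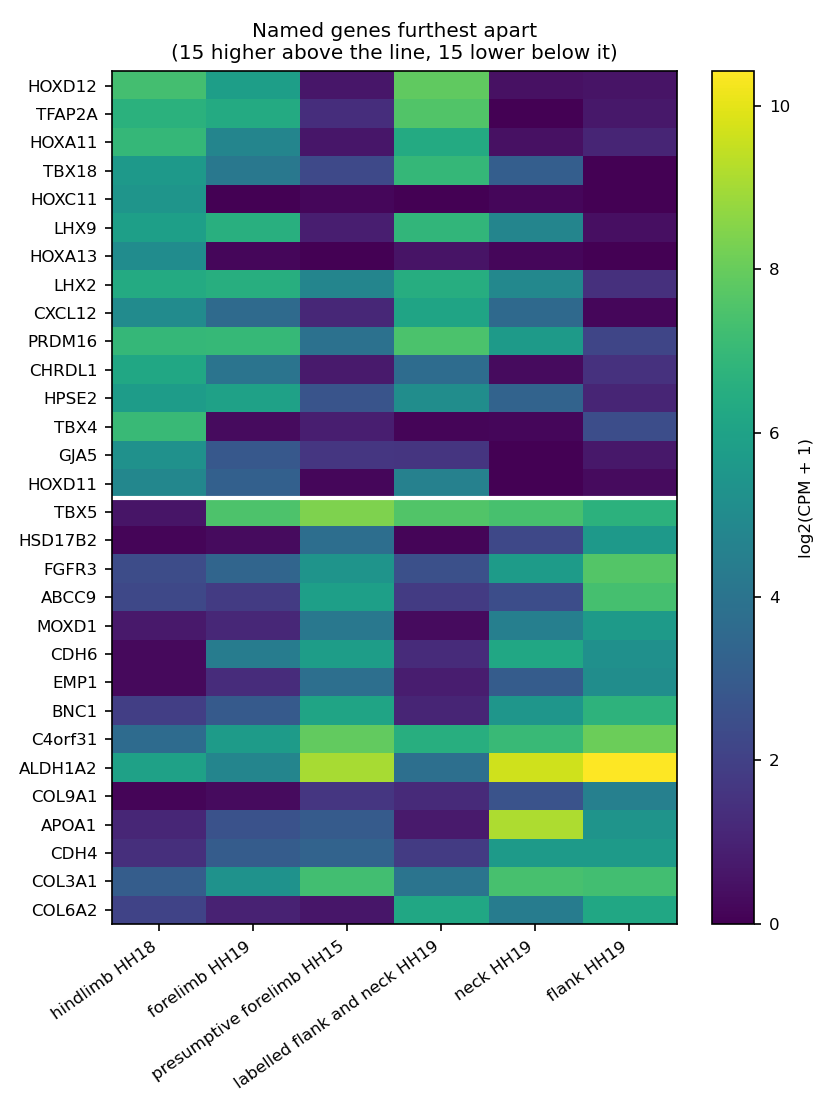
Levels, as log2(CPM + 1), of the 15 named genes with the largest difference above 0 (upper block) and the 15 with the largest difference below 0 (lower block) in each of the 6 libraries, hindlimb HH18 in the first column and flank HH19 in the last. HOXC11 and TBX4 are bright in hindlimb and dark in forelimb, LHX2 and PRDM16 are bright in both, and TBX5 and ALDH1A2 are bright in neck and presumptive forelimb HH15 as well as flank.

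The 15 named genes furthest below 0 were TBX5, HSD17B2, FGFR3, ABCC9, MOXD1, CDH6, EMP1, BNC1, C4orf31, ALDH1A2, COL9A1, APOA1, CDH4, COL3A1 and COL6A2, with differences of -6.08 to -4.10. They hold enzymes, adhesion molecules and matrix genes more than transcription factors. HSD17B2, a steroid dehydrogenase, had 1 read in hindlimb and 392 in flank, 456-fold (95% interval 81.4 to 18054) lower. ABCC9, a potassium channel regulator, stood at 3.84 CPM in hindlimb and 164 CPM in flank, and at 58.2 CPM in presumptive forelimb HH15, 4.55 CPM in neck and 2.51 CPM in forelimb HH19. MOXD1, a monooxygenase-like gene, and EMP1, a membrane protein gene, had 6 and 2 reads in hindlimb and 413 and 278 in flank. APOA1, an apolipoprotein gene, stood at 1.14 CPM in hindlimb and 41.2 CPM in flank and at 566 CPM in neck. An entry on the strand opposite to APOA1 stood at 1.14 CPM in hindlimb and 39.6 CPM in flank, almost the same values.

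Of 26 measured genes of the coelomic lining and lateral plate, 13 were 2-fold lower in hindlimb and 5 higher, with a median of -1.09, or -0.94 with genes at 0 reads set to the floor. BNC1 and BNC2, zinc-finger genes of mesothelium and other epithelia, stood at 2.81 and 11.8 CPM in hindlimb and 106 and 102 CPM in flank. GATA5 and GATA6 stood at 31.4 and 0.52 CPM in hindlimb and 224 and 13.3 CPM in flank. KRT8, a keratin of simple epithelia, stood at 9.56 CPM in hindlimb and 118 CPM in flank. TCF21, a visceral mesoderm factor, had 0 reads in hindlimb and stood at 2.90 CPM in flank, at least 9.30-fold lower. WT1, a defining gene of the coelomic lining, was within 2-fold and low in both, at 2.70 CPM in hindlimb and 3.75 CPM in flank. The 5 higher genes included TBX18, LHX9, LHX2 and ISL1, which are also bud genes described above.

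Of 39 measured connective tissue matrix genes, 22 were 2-fold lower, 56.4% against 8.88% of all genes. None was higher, against 3.50% of all genes, and the median was -1.22. COL3A1 and COL6A2, fibrillar and microfibrillar collagen genes, stood at 7.48 and 3.33 CPM in hindlimb and 155 and 73.2 CPM in flank. COL1A2 stood at 339 CPM in hindlimb and 932 CPM in flank, with an overlapping entry at 116 CPM in hindlimb and 332 CPM in flank. FN1, fibronectin, stood at 147 CPM in hindlimb and 601 CPM in flank. COL5A2 was level at -0.10. SVEP1, TNC and POSTN, cell-adhesive matrix proteins, stood at 3.53, 0.312 and 7.90 CPM in hindlimb and 72.3, 11.8 and 77.4 CPM in flank, and all 3 were higher still in neck, at 143, 76.4 and 186 CPM. PLOD2, a collagen-modifying enzyme, and FLRT2, a membrane ligand, neither of them on a list and both named after their values were seen, stood at 5.40 and 16.6 CPM in hindlimb and 72.4 and 274 CPM in flank. VIM, the intermediate filament gene of mesenchyme, was likewise on no list and named after its value was seen. It stood at 157 CPM in hindlimb and 658 CPM in flank.

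Of 9 measured cartilage genes, 6 were lower, 66.7% against 8.88% of all genes, and none higher. COL9A1 had 1 read in hindlimb and 186 in flank, 216-fold (95% interval 38.4 to 8590.0) lower, and HAPLN1, the link protein gene, stood at 14.2 CPM in hindlimb and 130.1 CPM in flank. SOX6 stood at 3.43 CPM in hindlimb and 37.2 CPM in flank, whereas SOX9, the leading cartilage factor, was low in both at 0.727 CPM in hindlimb and 1.93 CPM in flank. Of 35 adhesion genes, 7 were lower, 2 higher and 26 within 2-fold, with a median of -0.22. Most of the 7 were cadherins, with CDH6 at 0.208 CPM in hindlimb and 36.4 CPM in flank, CDH4 at 1.66 CPM in hindlimb and 50.04 CPM in flank, CDH7 at 1.35 CPM in hindlimb and 14.4 CPM in flank and CDH2, the cadherin of condensing and neural tissue, at 16.8 CPM in hindlimb and 66.2 CPM in flank. ALCAM and NCAM2, cell adhesion molecules of the immunoglobulin family, differed by -3.03 and -3.06.

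Markers of other cell types were not all apart: blood genes were mostly lower in hindlimb, while endothelial genes were mostly within 2-fold. In tissue RNA, fewer cells of a type and less RNA per cell cannot be told apart. Of 17 measured blood genes, 13 were 2-fold lower in hindlimb, 76.5% against 8.88% of all genes, and none higher. The summed level of the 17, which leave out the globin gene HBB, was 4424 CPM in hindlimb and 33852 CPM in flank. The pi-globin gene HBZ stood at 1511 CPM in hindlimb and 14052 CPM in flank. The 6 globin genes, HBB included, were 7.61-fold to 9.98-fold lower in hindlimb. CA2, carbonic anhydrase of red cells, differed by -3.22. Histone H5 (entry H5_CHICK), the linker histone of bird red cells, is not on the list. It stood at 3.33 CPM in hindlimb and 105 CPM in flank. RHAG was at 0 reads in both libraries.

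Of 17 measured ectoderm genes, 7 were 2-fold lower in hindlimb, 1 was higher and 9 were within 2-fold. Lower genes were 41.2%, against 8.88% of all genes, and the higher gene 5.88%, against 3.50%. The summed level was 126 CPM in hindlimb and 723 CPM in flank. DSP, the desmosome protein desmoplakin, stood at 41.4 CPM in hindlimb and 423 CPM in flank, and KRT19 and KRT5 at 9.56 and 2.29 CPM in hindlimb and 67.8 and 27.7 CPM in flank. CDH1, the epithelial cadherin, was level at 16.9 CPM in hindlimb and 16.2 CPM in flank. FGF4 had 0 reads in both libraries and FGF8 had 0 in hindlimb and 3 in flank, so neither ridge gene was measured. The list's summed level was 124 CPM in forelimb HH19 and 418 CPM in neck, and the part of epithelial cells in the keratin and coelomic differences was not tested.

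Endothelial genes were mostly within 2-fold, with 5 of 24 higher and 3 lower, 20.8% and 12.5%, against 3.50% and 8.88% of all genes. Their summed level was 478 CPM in hindlimb and 349 CPM in flank. GJA5 and GJA4, arterial connexins, and FLI1 were among the higher genes, at 37.2, 6.86 and 42.3 CPM in hindlimb and 0.604, 0.725 and 15.5 CPM in flank. The general endothelial gene CDH5 was within 2-fold at 0.28, and PECAM1 was lower at -1.12. Of 12 measured muscle precursor genes, 5 were higher, 41.7% against 3.50% of all genes, and none lower. Among the 5 was EYA2, a transcriptional coactivator, at 18.2 CPM in hindlimb and 2.18 CPM in flank. PAX3, which marks migrating precursors, stood at 1.97 CPM in hindlimb and 0.846 CPM in flank, and MYF5 and MYOG were at 0 reads in both.

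The remaining cell types gave small sums or mixed directions. Their counts are to be read beside the 3.50% of all genes higher and 8.88% lower. Neural genes summed to 50.4 CPM in hindlimb and 93.4 CPM in flank, with 3 of 6 lower and 1 higher, led by DCX, a microtubule protein of young neurons, at 3.74 CPM in hindlimb and 53.2 CPM in flank; PAX6 was at 0 reads in both. Neural crest genes summed to 318 CPM in hindlimb and 194 CPM in flank, with 4 of 9 higher and 2 lower. TFAP2A and ETS1 made up most of that sum in hindlimb, SOX10 was at 0 reads in both, and EDNRB, an endothelin receptor, differed by -3.22. Among tailbud genes, TBXT was within 2-fold at 0.49 and CDX2 stood at 1.04 CPM in hindlimb and 5.92 CPM in flank. Of 7 intermediate mesoderm genes, 1 was higher and 2 lower, and RET, a receptor of kidney and enteric development, stood at 0.52 CPM in hindlimb and 4.59 CPM in flank. Of 8 gut genes, SHH was higher and APOA1 lower. The lists for immune cells, germ cells and somite derivatives had no gene 2-fold apart among 7, 2 and 1 measured, and RYR2 was the single heart gene measured, at 0.208 CPM in hindlimb and 1.93 CPM in flank.

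Genes of growth and metabolism shifted by smaller amounts. All 39 measured ribosome assembly genes had differences above 0, with a median of 0.56. Of them, 5 were 2-fold higher, 12.8% against 3.50% of all genes. They were led by NPM3, a nucleolar chaperone, at 613.3 CPM in hindlimb and 137 CPM in flank. Of 58 ribosomal protein genes none was 2-fold apart, 55 were above 0, the median was 0.28, and RPL6 differed by 0.57. The medians of both lists are to be read beside the level of their genes. Over all tested genes the median was -0.007 where the higher level was 20 to 100 CPM. It was 0.15 at 100 CPM or more. Among 11 progenitor genes, MYCN, a growth regulator of progenitors, stood at 142 CPM in hindlimb and 31.7 CPM in flank, TRIM71 was just past 2-fold at 1.03, and LIN28A differed by 0.85. Cell cycle genes were close, with 34 of 35 within 2-fold and a median of 0.16. None was 2-fold higher, which in a list of this size is near the 3.50% of all genes. The 1 lower gene, 2.86% against 8.88% of all genes, was the inhibitor CDKN1B at -1.43. Of 45 respiratory chain genes none was 2-fold higher, likewise near the share of all genes, and 1 was 2-fold lower, 2.22%. Glycolysis and hypoxia genes had 4 of 32 higher and 4 lower, 12.5% each, against 3.50% and 8.88% of all genes. CA9, a hypoxia-induced carbonic anhydrase, stood at 71.8 CPM in hindlimb and 13.1 CPM in flank, and LDHA at 58.4 CPM in hindlimb and 27.7 CPM in flank, while GAPDH was level at -0.03. Of 18 stress genes, 2 were higher and 5 lower, 11.1% and 27.8%. JUN, an immediate early gene, differed by -2.38 and the chaperone HSPA8 by 0.87.

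**Figure D5:**
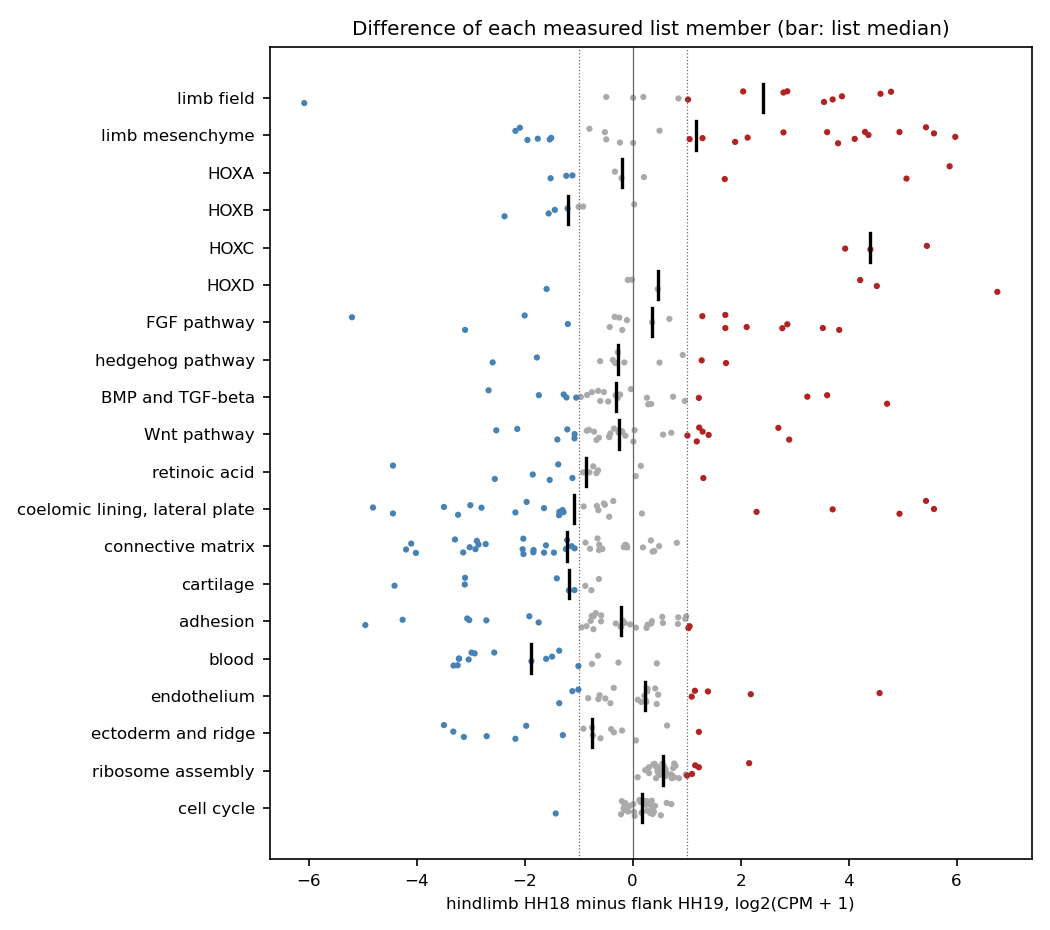
Difference between hindlimb HH18 and flank HH19, on the log2(CPM + 1) scale, of each measured gene in 20 lists, with a point for each gene, a black bar at the list's median and dotted lines at 2-fold. Points of the connective matrix, cartilage and blood lists lie mostly left of 0, and those of the limb field and HOXC lists mostly right of it. The HOXC points are HOXC10, HOXC11 and HOXC12 only. All 39 ribosome assembly genes lie right of 0.

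The comparison was repeated with the 6 globin genes left out of the totals and of the genes tested. Then 376 of 11851 genes were 2-fold higher in hindlimb, 3.17%, and 1123 were 2-fold lower, 9.48%. All 376 were among the 411 higher genes found with globins included, and 1038 of the lower genes were shared. The median difference moved to -0.11, and none of the named genes that were 2-fold apart changed sign. HOXB7 moved to 2-fold lower at -1.05, and UTP15, TRIM71 and LDHA moved just under 2-fold higher, with UTP15 at 0.96 and TRIM71 at 0.97. The authors' deposited table gives its ratio for this pair as flank over hindlimb, the other way round, and a p-value below 0.05 for 6404 of the 11754 genes, 54.5%, from single libraries.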

How the data were processed

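PolyA RNA-seq libraries of dissected chick mesenchyme were compared, 1 for hindlimb HH18 and 1 for flank HH19. Per the file headers, the authors deposited reads (counts) per gene, and normalised values that equal CPM over the genes of the table. The authors deposited a ratio (fold, flank over hindlimb) and a p-value for the pair; test and adjustment are not given in the sources used here. TopHat 1.4.0 and the galGal4 build are named, without a role, in the submitters' processing notes; the read counter, its use of strand and the annotation are not given in the sources used here. Coordinates are left out, because the placements in the table differ from that build's chromosome names, and no sequence was used here.

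CPM were recomputed from the counts over all genes, and differences were taken as log2(CPM + 1), hindlimb minus flank, for genes at 1 CPM or more in either library. Genes 2-fold or more apart were called by size, with no test. The calling step was tested on simulated data. Levels carry 95% Wilson intervals in the underlying tables, and ratios the exact 95% interval for counts in 2 libraries. Folds against 0 reads are given as the near end of that interval. The floor of 3 reads serves only for medians in which genes at 0 reads are set to it. For 1 library, the one with both flank and neck in its label, the table's heading gives only first letters and the stage, which fit no other library.

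Symbols came from the table (10265 entries), a RefSeq protein accession in the GRCg7b gene table (1259), an entry name equal to a RefSeq symbol (800) or the entry's description (211); other entries kept their IDs, and 14 turned into spreadsheet dates stayed unnamed. Named genes are the 15 furthest apart in each direction, all limb type and HOX genes, and up to 5 with the largest absolute difference in every other list (2 where no member is 2-fold apart), using the entry with the highest mean CPM where a name has several; some genes that this rule takes are not reported here, though they stay in the counts over lists; the other genes in the text were named after their values were seen. The comparison, members and gene lists were chosen with earlier results of these data known. Alternatives are given in the closing section. Computation ran in Python 3.11.15 (pandas 2.3.3, numpy 2.4.6, scipy 1.17.1 and matplotlib 3.10.9) and R 4.3.3 with edgeR 4.0.16 (TMM factors) and DESeq2 1.42.0 (size factors); neither was used for a test.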

Additional observations from a re-analysis of the deposited data

Results flagged for a closer look

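The library labelled flank and neck, which no comparison above uses, carried limb bud genes at levels far above those of the flank and neck libraries. It held 237 CPM of HOXD12, against 0.483 CPM in flank and 0.369 CPM in neck. TFAP2A stood at 192 CPM there, against 0.604 CPM in flank and 0 CPM in neck. HOXA11 stood at 81.3 CPM, against 1.09 CPM in flank and 0.369 CPM in neck. Hindlimb itself had 159, 99.97 and 121 CPM of these genes, and forelimb HH19 had 55.7, 81.8 and 25.5 CPM. The hindlimb genes TBX4, PITX1 and HOXC10 stood at 0.112, 0.112 and 0 CPM in the library labelled flank and neck. TBX5 stood at 189 CPM there, against 182 CPM in forelimb HH19 and 0.52 CPM in hindlimb.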

How the results depend on the processing

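With 1 library a side, the intervals cover counting error only, and the spread between embryos is unknown. A pseudocount of 0.1, a filter at 5 CPM or none, globin genes or the gene with the most reads left out of the totals, TMM, DESeq2 size factors and centring on the median each kept the counts of genes 2-fold apart within 1.5 times those given, with 297 higher and 711 lower in hindlimb at the 5 CPM filter and 1473 lower with the pseudocount of 0.1. The same held for 2 alternatives chosen after seeing the data, with the mitochondrial chromosome left out (459 higher and 1194 lower) or the globin genes and the entry opposite pi-globin left out (365 higher and 1160 lower). Requiring the near bound of the ratio's 95% interval to pass 2-fold left 234 higher and 671 lower. List medians and single-gene differences were less steady than the counts of genes 2-fold apart. Medians were marked as moved in 16 lists with no filter, 11 at the 5 CPM filter and 10 with a pseudocount of 0.1. Leaving out the mitochondrial chromosome moved 8. With the pseudocount of 0.1, 58 named genes were marked as moved and 162 as the same. With a pseudocount of 0.1, PTCH1 reached 1.01, SOX9 -1.30 and PAX3 1.13, and with TMM PTCH1 came just past 2-fold. No paired analysis was possible because each tissue had 1 library.

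Putting the library labelled flank and neck in place of flank gave 521 genes higher and 1230 lower in hindlimb and turned the direction of 74 named genes that had been 2-fold apart. The cause was not tested. The list medians became 1.84 for the HOXB list, 1.03 for the coelomic and lateral plate list and 0.81 for the blood list. Of genes higher in hindlimb than in flank, the differences became HOXD12 -0.57, TFAP2A -0.94, TBX18 -1.37, LHX9 -0.998, LHX2 -0.12, CXCL12 -1.09, PRDM16 -0.53, HOXA10 -0.64, NTS -1.89, CXCR4 -0.86, FLI1 -0.0019 and ETS1 -0.38. They further became EYA2 -0.63, EYA1 -0.083, MET -0.999, EYA4 -0.19, SOX8 -3.27, NGFR -3.01, CA9 -0.44, PFKFB3 -1.71, SALL3 -0.035, MECOM -1.77 and TBX15 -1.66. The last of these were SPRY2 -0.98, SPRY4 -1.65, FGF1 -0.74, FGF18 -1.62, BMP2 -0.12, HGF -0.51 and LDHA -3.11. Of genes lower in hindlimb than in flank, the differences became ABCC9 0.48, MOXD1 0.41, BNC1 0.84, ALDH1A2 2.17, APOA1 0.36, HOXA4 0.058, HOXB1 1.55, HOXB3 2.98, HOXB5 1.84, HOXB8 0.60 and HOXD9 2.38. More of these became FGF7 0.39, DISP1 0.59, SMOC2 3.44, RSPO3 0.19, RXRG 0.042, DHRS3 2.13, STRA6 2.28, EPHA3 0.96, EPHA5 0.36, SOX6 1.06, HAPLN1 0.61 and NCAM2 0.46. Others became ALCAM 1.5003, CDH7 0.82, HBE 6.59, HBE1 4.29, HBZ 6.57, HBAA 6.45, KRT8 1.66, DSP 2.66, KRT5 1.07, KRT19 1.52, EDNRB 0.46 and CDX2 0.87. The rest became EPAS1 0.34, MSX2 0.67, TBX2 2.48, TBX3 0.63, GATA5 2.45, GATA6 0.069, BNC2 1.35, CDH2 0.82 and BAMBI 2.01.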
